A study of Homo sapiens with 30 samples.

Results

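The ZR-75-30 time course consisted of the 6 arrays labelled with this cell line, out of 30 two-colour Agilent whole genome arrays of 5 established human breast cancer lines. ZR-75-30 is a line of ERBB2-positive, oestrogen receptor-bearing breast carcinoma cells. On each array the Cy5 channel held RNA of cells given recombinant human bone morphogenetic protein 4 (BMP4) and the Cy3 channel held RNA of cells given vehicle, with 1 array at each of 6 times from 30 min to 24 h (the others being 1, 3, 6 and 12 h), and the cells had adhered to 24-well plates for 24 h before treatment. The comparison lines were HCC1419, HCC1954, MDA-MB-361 and SK-BR-3, with 6 arrays each at the same times. By the study's methods, cells of 3 cultures were pooled for each channel, so a time point is 1 array with no biological replicate, and no array had its dyes swapped. All ratios, given in order of time wherever 6 follow each other, are log2 of BMP4 over vehicle after loess normalization, so that 1 stands for 2-fold. A probe counted as expressed where at least 1 channel was well above background on all 6 ZR-75-30 arrays, which 24418 of 41000 probes were.

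BMP4 is a secreted ligand of the transforming growth factor beta family. It brings together type I receptors (BMPR1A, BMPR1B, ACVR1) and type II receptors (BMPR2, ACVR2A, ACVR2B), which phosphorylate SMAD1 and SMAD5, and these enter the nucleus with SMAD4 and switch on target genes. The best known targets are ID1 to ID4, which encode helix-loop-helix proteins that hold back differentiation factors, and SMAD6 and SMAD7, which feed back to inhibit the pathway.

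The promoters of ID1, ID2 and ID3 are shown because ID1 and ID2 were among the genes with the longest runs at 2-fold in this line and ID3 is their close relative. They are the 250 bases before the RefSeq start in GRCh38.p14, read 5′ to 3′ on the gene's own strand: ID1 at chr20:31605039-31605288 (plus strand), ID2 at chr2:8681806-8682055 (plus strand) and ID3 at chr1:23559502-23559751 (minus strand). Capitals mark GGAGCC and CAGAC, 2 of the short motifs bound by SMAD proteins, on either strand.
ID1: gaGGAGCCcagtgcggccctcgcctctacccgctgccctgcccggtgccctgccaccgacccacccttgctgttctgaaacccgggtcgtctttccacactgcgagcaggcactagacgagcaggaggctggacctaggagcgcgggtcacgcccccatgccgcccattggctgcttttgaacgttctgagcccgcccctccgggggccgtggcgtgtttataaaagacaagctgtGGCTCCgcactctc
ID2: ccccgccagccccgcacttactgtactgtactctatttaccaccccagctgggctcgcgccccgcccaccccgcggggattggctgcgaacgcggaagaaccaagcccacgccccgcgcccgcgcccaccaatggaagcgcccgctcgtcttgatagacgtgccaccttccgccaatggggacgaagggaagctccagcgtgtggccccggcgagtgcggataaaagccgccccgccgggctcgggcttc
ID3: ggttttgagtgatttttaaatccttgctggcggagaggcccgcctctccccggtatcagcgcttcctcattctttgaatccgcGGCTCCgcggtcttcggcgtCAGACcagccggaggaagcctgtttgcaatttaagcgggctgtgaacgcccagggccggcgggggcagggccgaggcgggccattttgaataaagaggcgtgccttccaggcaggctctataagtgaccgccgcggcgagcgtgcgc
ID1 held GGAGCC at 2 places and ID3 at 1 place, and ID3 held 1 CAGAC. The third motif searched, GGCGCC, was in none of these windows. Over all 35116 RefSeq promoter windows of the same 250 bases, GGCGCC was in 16.4%, GGAGCC in 30.6% and CAGAC in 38.0%, and none of the 3 motifs overlapped another in the windows shown.

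The labelled cell type was checked in the vehicle channel. All 10 luminal epithelial markers on the list, among them KRT8, KRT18, EPCAM, CDH1, GATA3, ESR1 and ERBB2, were well above background on all 6 arrays. Of the markers of other cell types, 4 of 6 basal or myoepithelial, 2 of 7 fibroblast, 1 of 5 endothelial and 3 of 5 leukocyte markers were. These were KRT14, KRT17, ACTA2 and OXTR (basal or myoepithelial), COL1A1 and VIM (fibroblast), VWF (endothelial) and CD3E, CD14 and ITGAM (leukocyte). KRT5, COL1A2, PDGFRB, DCN, LUM, PECAM1, CDH5 and PTPRC were not well above background on any of the 6 arrays. The summed level ranged from 8.78 to 10.03 for the luminal list, from 0.28 to 1.75 for the basal, from -2.60 to -1.89 for the fibroblast, from -3.82 to -3.13 for the endothelial and from -2.24 to -0.76 for the leukocyte list. The median ratio of the basal, fibroblast, endothelial and leukocyte lists lay between -0.11 and 0.24 at every time point. That of the luminal list was -0.39 at 12 h, the array with most probes at 2-fold, and between -0.04 and 0.03 at the other times, and the part of such cells in the results was not tested. The median SD between 10 spots of the same probe, a technical spread within an array, was 0.038 to 0.103 on the 6 arrays.

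The vehicle channel also showed the parts of the pathway. Levels here are log2 of the processed Cy3 signal minus the 75th percentile of its array, which allows the same probe to be set side by side in different lines. The type I receptor BMPR1B was well above background on all 6 ZR-75-30 arrays, with a median level of -3.89 (lowest -4.20, highest -3.62), on all 6 HCC1954 arrays, and on no array of the other 3 lines. BMP4 itself had a median level of -2.53 (lowest -3.24, highest -1.99) in ZR-75-30, where HCC1954 had -4.39 and MDA-MB-361 had -4.71, and was not well above background in HCC1419 and SK-BR-3. BMP7, a related ligand, stood at 5.58 in ZR-75-30 and at 6.74 in SK-BR-3. The antagonists NOG and GREM1 were not well above background in the vehicle channel of any ZR-75-30 array. BMPR1A, BMPR2, ACVR1, SMAD1, SMAD4 and SMAD5 were measured on all 6 arrays.

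The number of genes at 2-fold in ZR-75-30 did not climb steadily with time. At 30 min, 13 expressed probes were at 2-fold above and 11 below vehicle (0.0533% and 0.0451%, together 0.0983%). At 1 h there were 222 higher and 604 lower probes (0.912% and 2.48%, together 3.39%). The counts were 65 and 32 at 3 h (0.266% and 0.131%, together 0.397%) and 11 and 7 at 6 h (0.0452% and 0.0287%, together 0.0739%). At 12 h they were 647 and 479 (2.65% and 1.96%, together 4.61%), and at 24 h 209 and 128 (0.856% and 0.524%, together 1.38%). In all, 1948 expressed probes (7.98%) were at 2-fold on at least 1 array, of which 1526 were so on 1 array alone. The spread of the ratios moved with these counts. The scaled median absolute deviation over expressed probes was 0.22, 0.37, 0.21, 0.18, 0.47 and 0.35 in order of time, and the value at 12 h was the widest of the 30 arrays.

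**Figure D1:**
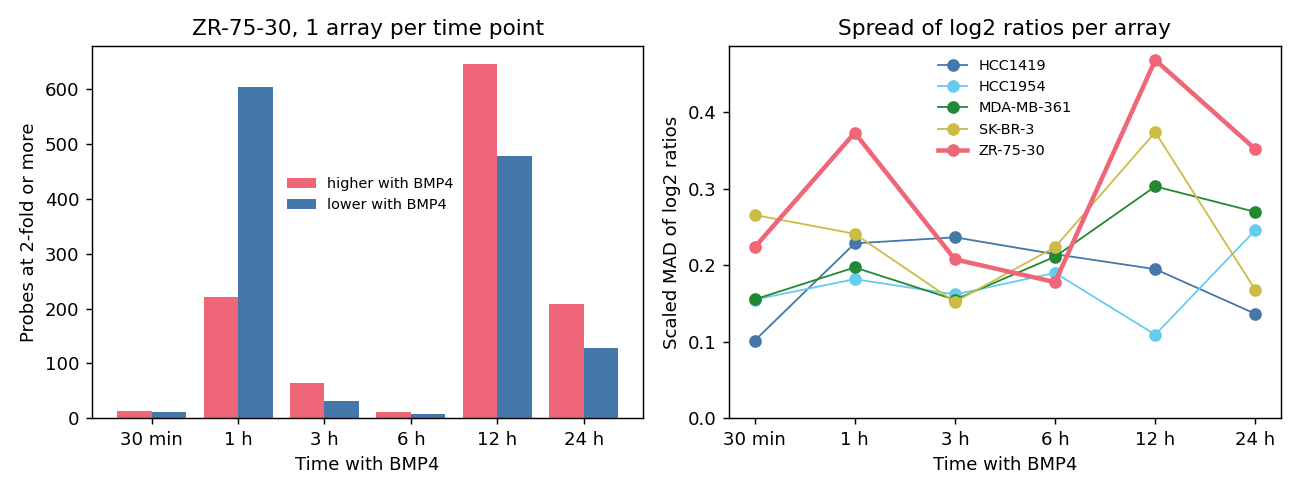
Left, number of expressed probes (y axis) at 2-fold or more above (red) or below (blue) vehicle at each time with BMP4 (x axis) in ZR-75-30, 1 array per time. Right, scaled median absolute deviation of the log2 ratios of each array (y axis) by time for the 5 lines; the ZR-75-30 array at 12 h, at 0.47, is the highest point.

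The late arrays resembled each other across slides. Over the expressed probes, Pearson's r across probes was 0.78 between 12 h and 24 h, 0.74 between 6 h and 12 h and 0.64 between 6 h and 24 h. The 12 h array was on 1 slide with 30 min and 3 h, and 6 h and 24 h were together on another slide scanned on another day, so the highest of these values joined arrays of different slides and days. The 12 h array correlated less with its own slide, at 0.12 with 30 min and 0.27 with 3 h. The 1 h array was at 0.49 with 6 h, 0.46 with 12 h and 0.35 with 3 h, and at -0.30 with 30 min. These are correlations across probes, which are not independent replicates, and arrays of 1 design share probe-specific dye effects.

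**Figure D2:**
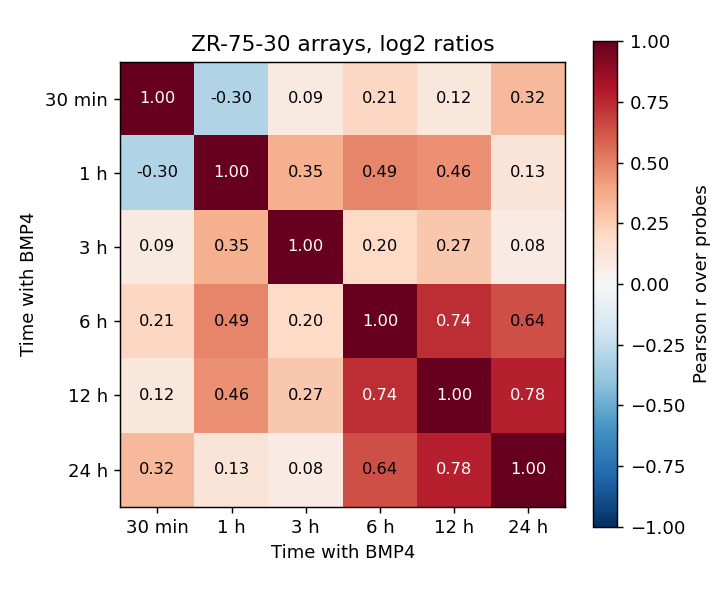
Pearson correlation (colour and number) of the log2 ratios of expressed probes between each pair of ZR-75-30 arrays, ordered by time on both axes. The block of 6, 12 and 24 h holds the 3 highest values, 0.64 to 0.78, and the pair 30 min and 1 h the lowest, -0.30.

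Most BMP target genes had ratios above 0 from 1 h on. ID1 was at 0.56, 1.06, 0.98, 1.06, 1.17 and 1.43 in order of time, and its highest value was the last. ID2 was measured by 2 probes in hg18, at chr2:8740093-8740481 and at chr2:8741733-8741792. The former gave 0.24, 0.29, 1.48, 0.93, 0.99 and 1.18, and the latter 0.74, 0.79, 1.59, 1.64, 2.20 and 2.39. Both ID2 probes were under 2-fold up to 1 h and over it at 3 h, and they differed in size at 12 h and 24 h. ID3 followed another course, with -0.05 at 30 min, 0.99 at 1 h, 0.86 at 3 h and then 0.60, 0.52 and 0.52. ID4 was at 0.17, 0.09, 0.89, 0.46, 0.33 and 0.66, highest at 3 h and under 2-fold throughout.

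Among the feedback inhibitors, SMAD6 was at -0.23, 0.41, 0.59, 0.45, 0.25 and 0.33, with its highest ratio at 3 h. SMAD7 stayed between -0.05 and 0.22. BAMBI, a pseudoreceptor that blocks signalling, was at 0.04, 0.06 and -0.22 up to 3 h and at 0.40, 0.97 and 0.78 from 6 h on, so that its high values were the last 3. HEY1, a transcriptional repressor shared with the Notch pathway, was at 0.46, 1.58, 0.71, 0.85, 1.29 and 1.22, above 2-fold at 1 h and again at 12 and 24 h. ATOH8, a helix-loop-helix factor, was at -0.13, 0.56, 0.72, 0.56, 1.06 and 0.50. Of the homeobox targets, DLX2 stood at 0.45, -0.28, 0.91, 0.61, 0.75 and 0.66, and DLX3 at -0.06, 0.91, 0.94, 0.38, 0.40 and 0.34. DLX3 was thus highest early and DLX2 from 3 h on. MSX1 stood at -0.54, 0.53, 0.55, 0.08, 0.76 and 0.28, and MSX2 at 0.26, -0.27, 0.51, 0.07, 0.38 and 0.51. GATA2, a zinc finger factor, was at -0.28, 0.41, 0.37, 0.42, 0.47 and 0.70, lowest at 30 min and highest at 24 h. SAMD11 was below 0 at 30 min as well, with -0.28, and at 0.45, 0.52, 0.84, 0.86 and 0.43 afterwards. SMAD9, a BMP-type SMAD, reached 0.57 at 12 h. HES1 was highest at 1 h, with 0.87, and HEY2 stayed between -0.17 and 0.19.

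Of the 20 listed targets, 19 were expressed. Their median ratio was 0.04 at 30 min and 0.41, 0.55, 0.42, 0.52 and 0.50 from 1 h to 24 h, where the median over all expressed probes lay between -0.02 and 0.01. At 24 h, 18 of the 19 were above 0, against 51.7% of expressed probes. When each array was scaled by a single factor, without loess, all expressed probes had medians of -0.35 (12 h) and 0.33 (24 h), above which the median of the 19 targets lay by 0.57 and 0.53. At 12 h, 11 of the 19 were then above 0 in place of 17, and SMAD6 and ID4 were at -0.22 and -0.10.

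**Figure D3:**
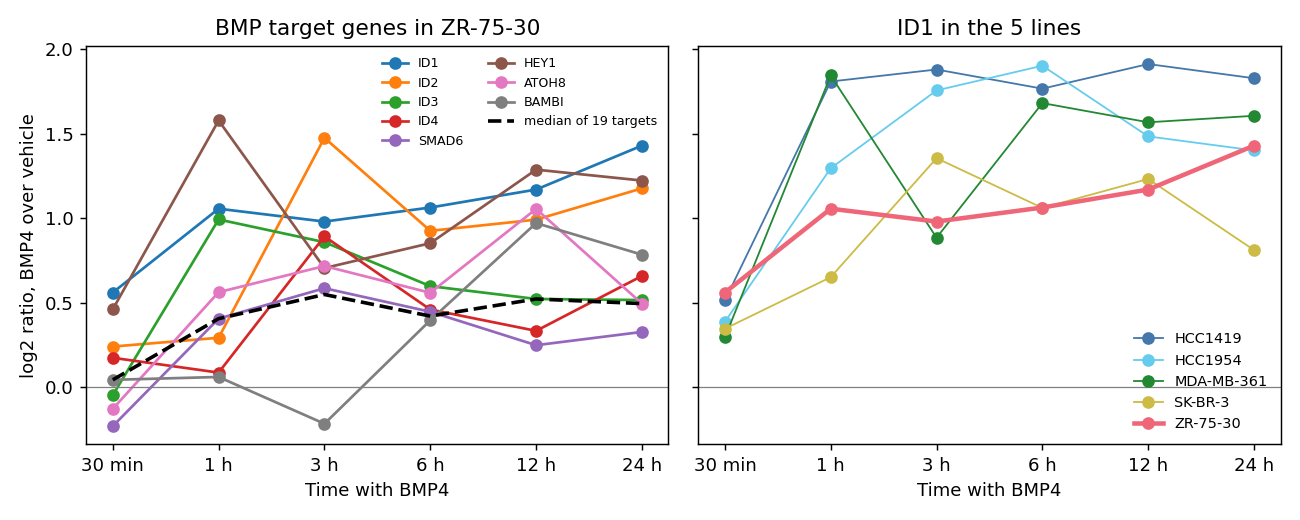
Log2 ratio of BMP4 over vehicle (y axis) by time (x axis). Left, 8 BMP target genes in ZR-75-30 (1 probe each) and the median of the 19 expressed targets (dashed), which is near 0 at 30 min and 0.41 or more afterwards; right, ID1 in the 5 lines, where ZR-75-30 has its highest value, 1.43, at 24 h.

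The question whether the ratio moved between the earliest and the later samples was tested as the mean of 3, 6, 12 and 24 h minus 30 min. The limma fit took in all 30 arrays, and the residual spread was taken as equal in the 5 lines. Each line had a single array at 30 min and at 1 h, which the fit matched exactly, so this spread came from the arrays of 3 h to 24 h alone. The SEs therefore assume that the unreplicated 30 min array varies as those late arrays do, which could not be checked. No probe of 40990 passed an adjusted p of 0.05 (Benjamini-Hochberg) in either direction (0% called higher and 0% lower), and 1729 higher and 1915 lower had an unadjusted p under 0.05. For ID1 the difference was 0.60 ± 0.27 (SE, adjusted p = 0.54 by limma). ID2 gave 0.90 ± 0.19 (adjusted p = 0.325, limma) and 1.21 ± 0.37 for its other probe (adjusted p = 0.453, limma). ID3 gave 0.67 ± 0.19 (adjusted p = 0.441, limma) and ID4 0.41 ± 0.22 (adjusted p = 0.593, limma). Within the slide that holds 30 min, 3 h and 12 h, the mean of 3 h and 12 h minus 30 min was 0.52 for ID1, 0.99 and 1.15 for ID2, 0.74 for ID3 and 0.44 for ID4. Within the other scan day, the mean of 6 h and 24 h minus 1 h was 0.19, 0.76, 1.23, -0.44 and 0.47 in the same order, so ID3 had the opposite sign there.

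The 5 genes with the smallest p in this test, none of them called, were BMF, BAZ2A, ACOT11, S100P and FGFR3. BMF, a pro-apoptotic BH3-only protein, was at -0.30, 0.83, 0.66, 0.36, 0.76 and 0.78, a difference of 0.94 ± 0.14 (SE, limma adjusted p = 0.154). S100P, a calcium-binding protein, was at 0.16, 0.09, 0.35, 0.72, 1.05 and 1.60 (0.77 ± 0.14). FGFR3, a fibroblast growth factor receptor, gave 1.00 ± 0.18 and ACOT11, an acyl-CoA thioesterase, 0.81 ± 0.14. BAZ2A, a chromatin remodelling subunit, was at 1.29 at 30 min and at -0.33, -0.54, -0.13, -1.03 and 0.11 afterwards (-1.68 ± 0.28). Its value therefore rests on 1 high array, and all 5 differences use that single 30 min array as baseline. The mean of 6 h and 24 h minus 1 h was -0.26 for BMF, 0.32 for BAZ2A and 0.79 for ACOT11. It was 1.07 for S100P and 0.21 for FGFR3. BMF and BAZ2A thus had the opposite sign there. Leaving out the 3 h array gave 92 probes called higher and 150 lower, the 3 h value of ZR-75-30 being then inferred from the other lines. Against the late change of the other 4 lines, no probe of 40799 was called in either direction by limma (unadjusted p under 0.05 for 1171 higher and 1594 lower), and the 5 smallest p were those of BAZ2A, TMEM125, NDFIP1, SENP8 and AOX1.

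Probes at 2-fold on 2 or more consecutive time points are called held. This is a description that uses the ratios themselves, with no test. There were 147 held probes higher with BMP4 (0.602% of those expressed) and 74 lower (0.303%). They named 104 and 45 genes by current symbols. Most of them were held at the end of the course: for 125 of 147 higher and 59 of 74 lower probes the run was 12 h to 24 h, and for 5 more higher probes it began at 3 h or 6 h and ended at 24 h. A smaller set was held at 1 h and 3 h, with 16 higher and 12 lower probes. Without the 12 h array the counts were 22 higher and 12 lower, and without the 24 h array 22 and 15. By the same rule HCC1419 had 48 higher and 159 lower probes, HCC1954 7 and 0, MDA-MB-361 255 and 36, and SK-BR-3 32 and 7.

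At the edge of the rule, ELOC was just inside with 1.15 at 12 h and 1.00 at 24 h, and ADM just outside with 0.995 and 1.13. On the lower side MDK was just inside with -1.17 and -1.01, and MCRS1 just outside with -1.19 and -0.999.

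**Figure D4:**
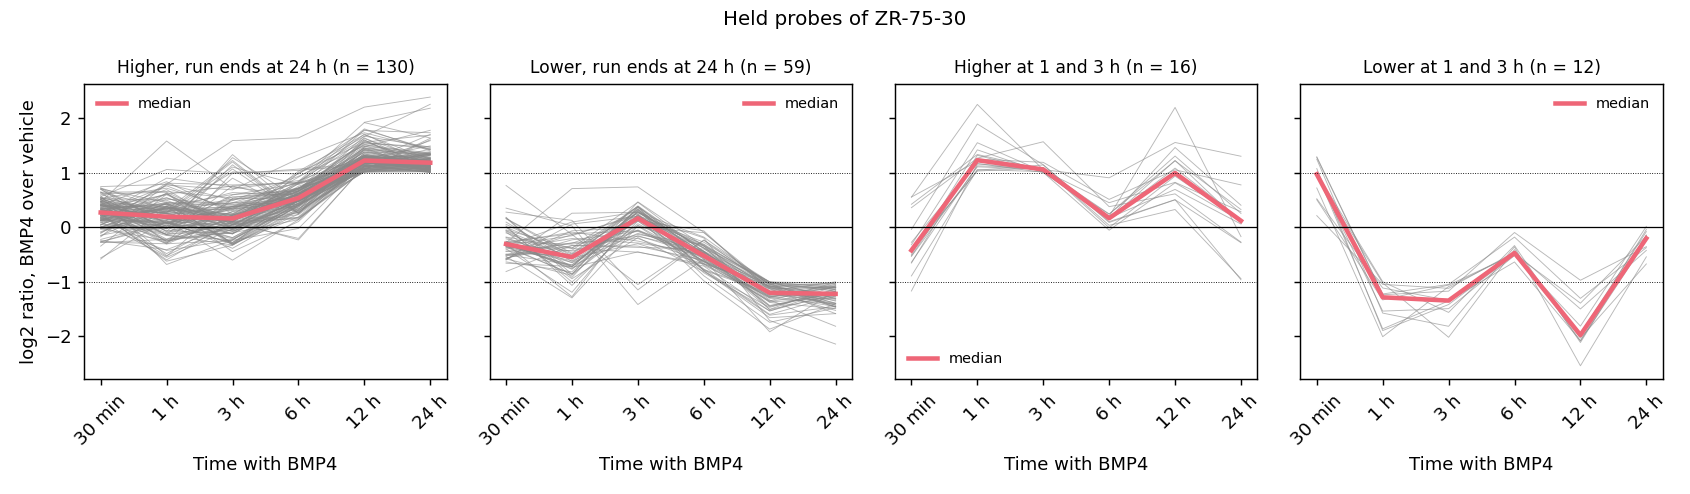
Log2 ratio (y axis) by time (x axis) of the held probes of ZR-75-30, each probe a grey line and the median in red, with 2-fold dotted. The 130 higher and 59 lower probes whose run ends at 24 h have medians of 0.53 and -0.53 at 6 h, and the 16 higher and 12 lower probes of 1 h and 3 h have medians on the opposite side of 0 at 30 min.

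Of the 125 higher probes whose run was 12 h to 24 h, 121 were above 0 at 6 h, 3 were below and 1 had no value. Among expressed probes 47.3% were above 0 at 6 h. Such a run required the 6 h ratio to be under 2-fold or missing, and left its sign free. The 6 h array shared its slide and scan day with the 24 h array that helped to pick these probes, so the shared sign is not independent support. The median of the 130 probes whose run ended at 24 h was 0.27, 0.19, 0.16, 0.53, 1.22 and 1.18 in order of time. With 1 factor per array their median at 12 and 24 h lay 1.1 and 1.27 above that of all expressed probes. All 130 were well above background in both channels on all 6 arrays.

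The longest runs in the higher direction belonged to the second ID2 probe, with 4 time points, and to GIPR, ID1, MTERF4, MAP3K5 and MBNL2, with 3. MAP3K5, a stress-activated kinase also called ASK1, was at 0.36, -0.30, 1.00, 1.04, 1.14 and 1.26, near 2-fold from 3 h on. MTERF4, a mitochondrial ribosome assembly factor labelled MTERFD2 on the array, was at 0.09, 0.77, 0.68, 1.26, 1.73 and 1.42, and its other 2 probes had means of 0.79 and 0.99 over 12 h and 24 h. GIPR, the receptor of an incretin hormone, was already at 1.69 at 30 min, followed by 1.23, 1.09, 0.92, 2.24 and 1.07. MBNL2, a splicing regulator, was at 0.33, -0.00, 0.10, 1.03, 1.70 and 1.24, but a second expressed MBNL2 probe had a mean of -0.22 over 12 h and 24 h.

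Next in the order came PLAC8, HOXB6, UNC5B and RGS2, each held at 12 h and 24 h. HOXB6, a homeobox factor, was at 0.41, 0.25, 1.01, 0.97, 1.67 and 2.25, and missed a longer run by its 6 h value. RGS2, which turns off G-protein signalling, was at -0.01, 0.12, 0.32, 0.98, 1.77 and 1.73. UNC5B, a netrin receptor, was at -0.02, 0.22, 0.38, 0.84, 1.92 and 1.64. Both followed the same steps, near 0 up to 1 h and over 3-fold at 12 h and 24 h. PLAC8 was at 0.21, -0.54 and 0.52 up to 3 h and at 1.92 and 2.18 at 12 h and 24 h, its 6 h spots having been left out as outliers, and its other held probe was at 1.56 and 1.69 at 12 h and 24 h.

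The probes held lower at the end lay on brighter spots. Their median ratio was -0.31, -0.55, 0.16, -0.53, -1.21 and -1.23, and all 59 were below 0 at 6 h, where 52.4% of expressed probes were. Here too the 6 h array was on the slide of the 24 h array that helped to pick them. The mean log2 intensity over both channels had a median of 11.6 for these 59 probes, 10.2 for the 130 higher ones and 9.53 for all expressed probes. CFL1, which severs actin filaments, was at -0.58, -0.89, 0.18, -0.98, -1.87 and -1.41, and its other held probe at -1.54 and -1.23 at 12 and 24 h. PKM (PKM2 on the array), the last enzyme of glycolysis, was at -0.07, -0.73, 0.29, -0.48, -1.51 and -1.25, and its other probe gave -1.46 and -1.20. SF3B4, a subunit of the splicing machinery, was at -1.30 and -1.41 at 12 h and 24 h, CSK, a kinase that inhibits SRC, at -1.37 and -1.30, and LY6E, a membrane-anchored antigen, at -1.19 and -1.53. These genes were low at 1 h and 6 h as well but not at 3 h, where their values ran from -0.06 to 0.33. EEF1A2, a translation elongation factor, was at -0.44, -0.55, 0.39, -0.45, -1.26 and -1.46. PRPS1, a nucleotide synthesis enzyme, differed by being low at 3 h, with 0.35, 0.02, -1.42, -0.59, -1.92 and -1.17.

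The normalization moved these values at both times. With 1 factor per array, CFL1 was at -2.06 at 12 h and -0.64 at 24 h and PKM at -1.78 and -0.52. CFL1, PKM, EEF1A2 and LY6E moved more at 24 h. SF3B4, CSK and PRPS1 moved more at 12 h, CSK being then at -1.94 at 12 h and -0.87 at 24 h. All 59 late lower probes kept their sign at both times, with medians 1.30 and 1.03 below those of all expressed probes.

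The 28 probes held at 1 h and 3 h had a different course. The 12 lower ones were all above 0 at 30 min and had medians of 0.97, -1.29, -1.35, -0.48, -1.98 and -0.21, so that a low value at 12 h followed a value nearer 0 at 6 h. LY6G5C, a membrane-anchored protein, was at 1.07, -1.90, -1.42, -0.51, -1.95 and -0.08. LGI4, a secreted protein of the peripheral nerve, was at 0.95, -1.54, -1.50, -0.52, -1.82 and 0.01. JAKMIP3 (C10orf39 on the array) was at 0.92, -1.03, -2.02, -0.41, -2.09 and -0.25. The 3 genes went up and down together, lowest at 1, 3 and 12 h. The 16 higher probes mirrored them, with medians of -0.43, 1.23, 1.06, 0.16, 0.99 and 0.12, and 12 of them were below 0 at 30 min. These runs cross slides and scan days, since 1 h and 3 h were not on the same slide. RGMA, a BMP co-receptor, was among the 12, at 1.29, -1.23, -1.05, -0.18, -1.31 and -0.38, and was well above background in the vehicle channel on 5 of 6 arrays and in the BMP4 channel on 4.

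Other probes of the held genes gave a check inside the arrays. For 47 genes held higher up to 24 h, 71 further expressed probes were present, and 48 of them had a mean above 0 over 12 h and 24 h, against 50.1% of all expressed probes. Their median was 0.18 where the held probes themselves had 1.15. For 12 genes held lower, 19 of 22 further probes were below 0, with a median of -0.90 beside -1.27. Both CASP4 probes were held, at 1.57 and 1.13 and at 1.34 and 1.08. CASP4, an inflammatory caspase, was 1 of 4 genes with 2 held probes, the others being CFL1, PKM and PLAC8.

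The late held probes were then read on the arrays of the other lines, which the rule did not use. Of the 130 higher probes, those expressed in the other line had a mean over 12 h and 24 h above 0 for 108 of 120 in HCC1419, 109 of 121 in HCC1954 and 105 of 120 in SK-BR-3, against 52.3%, 50.6% and 50.9% of all probes expressed in both. In MDA-MB-361 it was 62 of 117, against 51.3%. The sizes were smaller than in ZR-75-30, with medians of 0.28, 0.24, 0.28 and 0.04 in HCC1419, HCC1954, SK-BR-3 and MDA-MB-361. Of the lower probes, 51 of 58 were below 0 in HCC1419 and 53 of 57 in HCC1954, with medians of -0.18 and -0.23, and 36 of 58 in SK-BR-3 and 36 of 57 in MDA-MB-361. The shares of all probes below 0 were 47.7%, 49.4%, 49.1% and 48.7% in that order. All arrays share the dye orientation, so probe-specific dye effects, whose part was not tested, are common to these values.

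Few genes were held in several lines. ID1 and ID2 were held higher in all 5. GPER1 (GPR30 on the array), a membrane receptor for oestrogen, was held in ZR-75-30, HCC1419, MDA-MB-361 and SK-BR-3. EDN2, DUSP2, HEY1 and MAP3K5, named like GPER1 after their values were seen, were shared with HCC1419 and MDA-MB-361, GIPR with HCC1419 and SK-BR-3, and UNC5B with SK-BR-3. In all, 9 probes were shared with HCC1419 (6.12% of the 147 and 18.8% of those of HCC1419) and 10 with MDA-MB-361 (6.80% and 3.92%). SK-BR-3 shared 6 (4.08% and 18.8%) and HCC1954 shared 3 (2.04% and 42.9%). Of the probes expressed in each line, the share held higher was smallest for HCC1954 (0.0280%), then SK-BR-3 (0.141%), HCC1419 (0.197%) and MDA-MB-361 (0.986%). None of the 74 lower probes was held lower in another line, where the share of expressed probes held lower was 0.651% (HCC1419), 0% (HCC1954), 0.139% (MDA-MB-361) and 0.0309% (SK-BR-3), so that hardly any overlap could be seen.

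The other gene lists had no probe called in the late change, and are described by their medians and by the number of genes on each side of 0, where 50.5% of expressed probes were below 0 at 12 h and 48.2% at 24 h. Of the 34 mitosis and replication genes, 29 were below 0 at 12 h and 28 at 24 h, with medians of -0.42 and -0.39. TOP2A, which untangles DNA, was at -1.09 and -0.91, CCNA2, cyclin A, at -0.95 and -0.63, BUB1, a spindle checkpoint kinase, at -0.63 and -0.61, and NUSAP1, a spindle protein, at -0.45 and -0.42. BUB1B, chosen after its values were seen as the 1 held gene of the list, was at -1.13 at 12 h. With 1 factor per array the median of this list at 24 h was 0.26, opposite in sign, and 0.07 below that of all expressed probes. Of 21 oestrogen-response genes, 15 were below 0 at 12 h and 13 at 24 h (medians -0.26 and -0.14), with SLC39A6, a zinc transporter, at -1.45 and -0.61, and CXCL12, a chemokine, at -0.72 and -0.62. Of 14 BMP receptors and SMADs, 11 were below 0 at 12 h and 6 at 24 h, SMAD4 being at -0.68 and -0.47 and SMURF2, a ubiquitin ligase of the pathway, at -0.83 and -0.27. SMAD1, named after its values were seen, went the other way. Its brightest probe had a mean of 0.22 over 12 h and 24 h, and another probe, held higher at these times, had 1.60. Of 13 replication-dependent histone genes, 10 were above 0 at 12 h and 10 at 24 h (medians 0.29 and 0.20), H2BC21 (HIST2H2BE on the array) being at 0.55 and 0.65. Of 8 BMP ligands and antagonists, BMP7 was at 0.47 and 0.67 and CHRD, an antagonist, at 0.44 and 0.51. The medians of the remaining lists lay between -0.25 and 0.24 at 12 h and between -0.16 and 0.29 at 24 h.

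The last comparison asked where the mean ratio over the 6 time points differed from that of the other lines. A dye bias common to all arrays cancels in this difference. An effect on all arrays of 1 line, technical or not, stays in. ZR-75-30 shared no slide with another line, so effects of line and of slide cannot be told apart. The time points of each unreplicated course stand in for replicates. By limma 1796 probes of 40997 were called higher (4.38%) and 2252 lower (5.49%), and among the expressed probes 7.08% were called higher and 8.61% lower. With 1 factor per array no probe was called in either direction by limma (unadjusted p under 0.05 for 546 higher and 6065 lower), so the counts depended on the loess step. They depended on single arrays and lines too: without the 12 h array 204 were called higher and 168 lower, without the 24 h array 831 and 1417, and without MDA-MB-361 701 and 1126. Without the array at 30 min the counts were 2288 and 3411, at 1 h 1531 and 1335, at 3 h 2694 and 3446 and at 6 h 1144 and 1187. They were 1188 and 1438 without HCC1419 and 1356 and 1438 without HCC1954.

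The largest called higher values were in HOXB6, PPP3R1, MAN1C1, CASP4 and CRCT1. HOXB6 (chr17:44028192-44028251, hg18) had a mean of 1.1 in ZR-75-30 and was 0.97 ± 0.16 (SE) above the other lines, whose means were 0.07 to 0.23 (limma adjusted p = 0.00265). CRCT1, a gene of the epidermal differentiation cluster, had a mean of 0.69 against -0.04 to 0.08 in the others, a difference of 0.69 ± 0.13 (limma adjusted p = 0.0051). MAN1C1, a mannosidase of the Golgi, differed by 0.80 ± 0.15 and CASP4 by 0.71 ± 0.15. PPP3R1, the regulatory subunit of calcineurin, differed by 0.85 ± 0.23, and its ratio was high at 3 h and 12 h, with 1.24 and 2.42, and between -0.28 and 0.87 on the other arrays.

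The largest called lower values were those of JAKMIP3, LY6G5C, LGI4, CFAP74 and TMCC2, at -1.21, -1.17, -1.08, -1.01 and -0.94. All 5 were among the 12 probes held lower at 1 h and 3 h. Their SEs were 0.23 to 0.34, and those of the higher 5 were 0.13 to 0.23. Without the 12 h array none of the 5 was called, with adjusted p of 0.0902 to 0.243 by limma. TMCC2 also lost its call without the 1 h, 3 h or 24 h array and without any 1 of the other lines, JAKMIP3 without 1 h, 3 h or 24 h, and LY6G5C and LGI4 without 1 h or without HCC1954. PPP3R1 and CASP4 lost theirs without the 12 h array (adjusted p = 0.192 and 0.0672, limma), and PPP3R1 also without 24 h, HCC1419 or SK-BR-3. HOXB6 was called in each fit without 1 array or line. It lost its call with the series matrix (adjusted p = 0.0561, limma) and, like every other probe, under single-factor scaling. In the 4 other lines the same probes had means from -0.10 to 0.95, the highest in HCC1954.

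**Figure D5:**
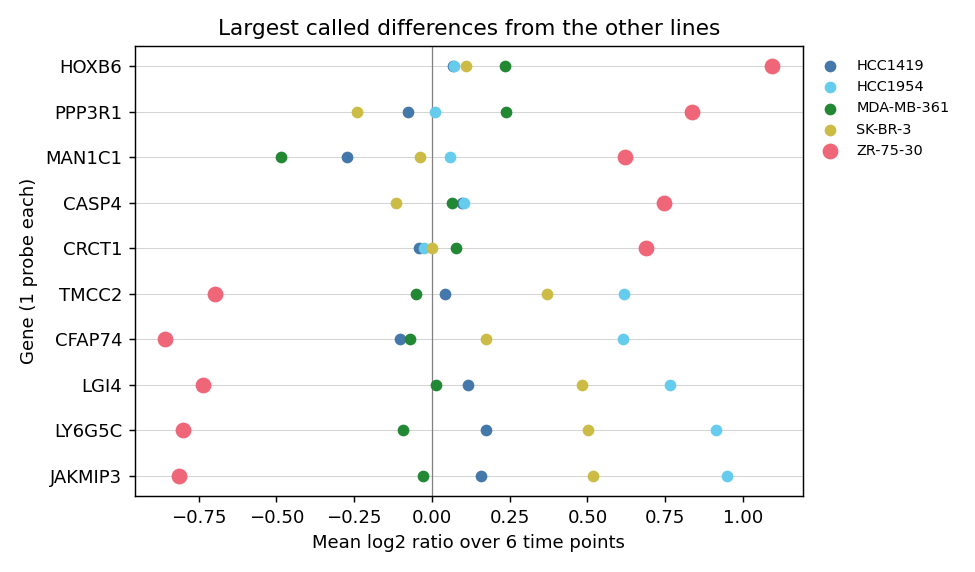
Mean log2 ratio over 6 time points (x axis) in each of the 5 lines (points) for the 10 genes with the largest called differences (y axis). ZR-75-30 lies outside the range of the other 4 lines for every gene, with HOXB6 at 1.1 against at most 0.23.

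Of the 19 BMP targets, 1 was called higher than in the other lines and 2 lower, which is near the share of all expressed probes called (7.08% and 8.61%). RUNX2, an osteogenic factor, was 0.22 ± 0.06 higher (limma adjusted p = 0.0209), ID4 was lower (-0.53 ± 0.12, limma adjusted p = 0.0119) and SMAD7 was lower (-0.29 ± 0.08, limma adjusted p = 0.0276). For ID4 the mean of 3 h to 24 h was 0.59 in ZR-75-30 and 1.03 to 1.47 in the other lines, and the call was lost without the 12 h array (adjusted p = 0.0963). ID1, with 1.16, lay inside the range of 1.12 to 1.85 of the others. The first ID2 probe, with 1.14, lay inside 0.98 to 1.51. The second ID2 probe, with 1.954, was just above the range of 1.355 to 1.941 of the others. Neither ID2 probe was called. ID3 was at 0.62, between SK-BR-3 at 0.45 and the remaining lines at 1.14 to 1.33.

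HOXB6 was not accompanied by its whole cluster. These neighbours were chosen after the HOXB6 values were seen. On chromosome 17, HOXB4 was at -0.39 and -0.14 at 12 h and 24 h, the 2 HOXB7 probes at 0.17 and 0.13 and at -0.43 and -0.78, HOXB9 at 0.46 and 0.49, HOXB3 at 0.67 and 0.62 and HOXB2 at 0.74 and 0.34. HOXB3 was called higher than in the other lines (0.30 ± 0.09, limma adjusted p = 0.0341), as was 1 of the 2 HOXB13 probes (0.50 ± 0.10, limma adjusted p = 0.00611), and HOXB2, HOXB4, HOXB7 and HOXB9 were not.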

How the data were processed

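RNA of vehicle-treated (Cy3) and BMP4-treated (Cy5) cells was hybridized by the authors, and the deposited scanner files hold intensity values per spot from Feature Extraction 9.5.1.1 with hg18 positions, and a log10 ratio of processed signals. The deposited series matrix holds log2 ratios with a median of 0 per array. Its lowest correlation with the scanner ratio, where that was not set to 0 by the software, was 0.9996 over the 30 arrays, which fixed its scale and direction.

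Mean and background intensities were corrected by normexp (offset 50) and normalized by loess within arrays in limma 3.58.1 (R 4.3.3). The 1639 control spots had weight 0, outlier spots were left out, and spots of a probe were averaged. Benjamini-Hochberg adjustment covered all probes with a value. The late change came from a fit of line by phase plus late time (12 residual degrees of freedom) and the mean ratio from line plus time (20). A simulation with independent noise of equal spread on all arrays checked only that the late-change fit returns differences set in advance. The real arrays differed in spread, so it does not bear on the calls made here. Of 41000 probes, 27745 matched a current RefSeq symbol (GRCh38.p14) and older array names are given beside them. For gene lists the brightest probe of a gene was used.

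Named were the BMP targets, the 10 probes held longest each way, the 5 largest called differences each way, up to 4 examples per list and, where nothing was called, the 5 smallest p. The members and lists were chosen with earlier results of these data known. Pooled cultures give 1 array per time, so p-values rest on the spread over time and lines, and the small number of arrays limits the precision. Same-numbered samples are those of the same cell line, which was kept as a block.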

Additional observations from a re-analysis of the deposited data

Results flagged for a closer look

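At 1 h, ZR-75-30 had 826 probes at 2-fold, which stood apart from the other 4 lines at that time. Over 126 such tests of array counts, spreads and BMP target ratios, 7 had a line that stood apart in this way, ZR-75-30 in 1 of them, and chance flags about 1 in 20. The 1 h array was the only ZR-75-30 array on its slide. Of the 6 arrays of the line it had the highest median spot SD (0.103). It also had the lowest slope of observed on expected log ratios of the control spike-ins (0.588). The part of these in the count was not tested. The differences from the other lines called by limma were HOXB6 at 0.97, PPP3R1 at 0.85, MAN1C1 at 0.80, CASP4 at 0.71 and CRCT1 at 0.69 on the higher side. On the lower side they were JAKMIP3 at -1.21, LY6G5C at -1.17, LGI4 at -1.08, CFAP74 at -1.01 and TMCC2 at -0.94. Each is the mean log2 ratio over 6 time points minus that of the other lines.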

How the results depend on the processing

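Counts are given as higher and lower. In the late change, 0 and 0 became 27 and 70 with the scanner's processed signals, 6 and 6 with the series matrix, 1 and 2 with no background correction, 9 and 4 with the mean of 30 min and 1 h as baseline, 2 higher with outlier spots kept and 3 lower with no replicate block for the lines. Leaving out 1 array or line gave 0 to 92 and 0 to 150. Against the other lines, 0 and 0 became 66 and 76 with processed signals, 6 and 3 with the matrix, 1 and 1 with no background correction and 2 higher with outlier spots kept, and stayed at 0 to 0 when leaving out 1 array or line. For the mean ratio, 1796 and 2252 became 0 and 0 with 1 factor per array, 979 higher with the matrix and 1190 higher with no replicate block, and leaving out 1 array or line gave 204 to 2694 and 168 to 3446. The 147 and 74 held probes became 384 and 254 with processed signals, 319 and 323 with the matrix and 58 higher with 1 factor per array. They became 1798 and 1001 at 1.5-fold, 5 and 2 at 3-fold, 6 and 0 with 3 or more time points and 559 and 147 after subtracting the 30 min ratio, and 22 to 157 and 12 to 74 without 1 array. The median of the mitosis and replication genes at 24 h reversed, to 0.26, with 1 factor per array. The cause of these shifts was not tested. All other alternatives left each count within 1.5 times. Single genes were followed through the alternatives only in part. In the late change these were ID1 to ID4 and the 5 genes with the smallest p, and against the other lines BAZ2A and TMEM125. In the mean ratio they were ID4 and the 5 largest called differences each way. Other named genes were not followed. None of the fitted differences that were followed changed sign. Single ratios did with 1 factor per array, among them SMAD6 at 12 h (-0.22), ID4 at 12 h (-0.10) and CFL1 at 3 h (-0.19). The spots of weak probes have little signal over background, which limits small ratios.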
